A study of Homo sapiens with 11 samples.

Results

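Tenascin C (TNC) and 5 other secreted matrix proteins that TGF-beta or YAP signalling can induce, SPARC, THBS1, CYR61, CTGF and TGFBI, were followed by gene name through the expression and splicing tables of HCC78 cells with wild-type or S34F mutant U2AF1. All 6 genes were found among the 57773 genes of the expression table. HCC78 is a lung adenocarcinoma cell line that has an S34F allele of U2AF1 and a fusion of SLC34A2 to ROS1 of its own, so every group, the parental cells included, held some S34F transcript. Stable subclones had received a tetracycline-inducible lentiviral construct for tagged wild-type (WT) or S34F U2AF1, and the number of subclones behind each line was not given. The 9 libraries were 2 replicates each of S34F dox+, WT dox+, WT dox- and parental cells, and 1 library of S34F dox-, where dox+ and dox- mean with and without doxycycline. The labels list the parental cells as dox-, whereas a supplementary table header of the study has them as dox+. Levels are FPKM, which scales the fragments of a gene to its length and to the size of the library. The tables hold no counts, so the depth behind each level is unknown.

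U2AF1 binds the AG dinucleotide at the 3′ end of introns, and the S34F change lies in the part of the protein that contacts RNA. TGF-beta receptors signal through SMAD proteins, whereas YAP and TAZ are the effectors of the Hippo pathway and of cell tension and act on DNA through TEAD factors. Both routes raise transcription of matricellular proteins, which sit in the matrix and modulate adhesion more than they build fibres. TNC is a large hexameric glycoprotein of tumor stroma and wounds, SPARC binds collagen, and THBS1 (thrombospondin 1) can activate latent TGF-beta. CYR61 (CCN1) and CTGF (CCN2) are integrin-binding proteins of the CCN family and standard readouts of YAP activity, and TGFBI is an adhesion protein named for its induction by TGF-beta.

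The induction itself was visible in U2AF1, which reached 278 and 299 FPKM in the WT dox+ pair and 164 and 223 in the S34F dox+ pair and stayed between 103 and 115 in the 5 uninduced libraries. By the labels, the mutant share of U2AF1 mRNA was 62% and 65% for S34F dox+, 12% and 14% for WT dox+, 28% for S34F dox-, and 32% to 33% for WT dox- and parental cells. The number of genes at 1 FPKM or more ranged from 13661 to 20896, highest in S34F dox+ replicate 2. The libraries were epithelial: the 10 epithelial markers summed to between 8654 and 11662 FPKM, the 11 fibroblast markers to between 10.9 and 22.7, and 5 endothelial markers to at most 3.37. The sum of the 9 lung adenocarcinoma markers was 591 and 642 FPKM in parental cells and between 262 and 370 in the transduced lines. The 6 leukocyte markers summed to 35.4 and 46.1 FPKM in S34F dox+, to 24.8 and 25.2 in WT dox+ and to between 16.8 and 31.3 elsewhere, most of it from CD68, a lysosomal protein. No gene on these lists was at 0 in all 9 libraries. In such bulk samples, more cells that express a gene and more RNA per cell cannot be told apart.

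The 6 genes covered a wide span of levels. Per length, TGFBI was the most abundant, with a mean of 798 FPKM over the 9 libraries and rank 111 among 20327 protein-coding genes. CYR61 followed with 194 FPKM (rank 458). THBS1 had 29.2 FPKM (rank 3656), CTGF 11.1 (rank 7039), TNC 5.94 (rank 8842) and SPARC 2.11 (rank 10881). All 6 passed the minimum mean of 1 FPKM for testing. TNC nevertheless had the widest spread between libraries, 5.38-fold from the lowest to the highest, against 3.16-fold for CTGF, 2.75-fold for SPARC, 2.43-fold for THBS1, 2.02-fold for TGFBI and 1.86-fold for CYR61.

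**Figure D1:**
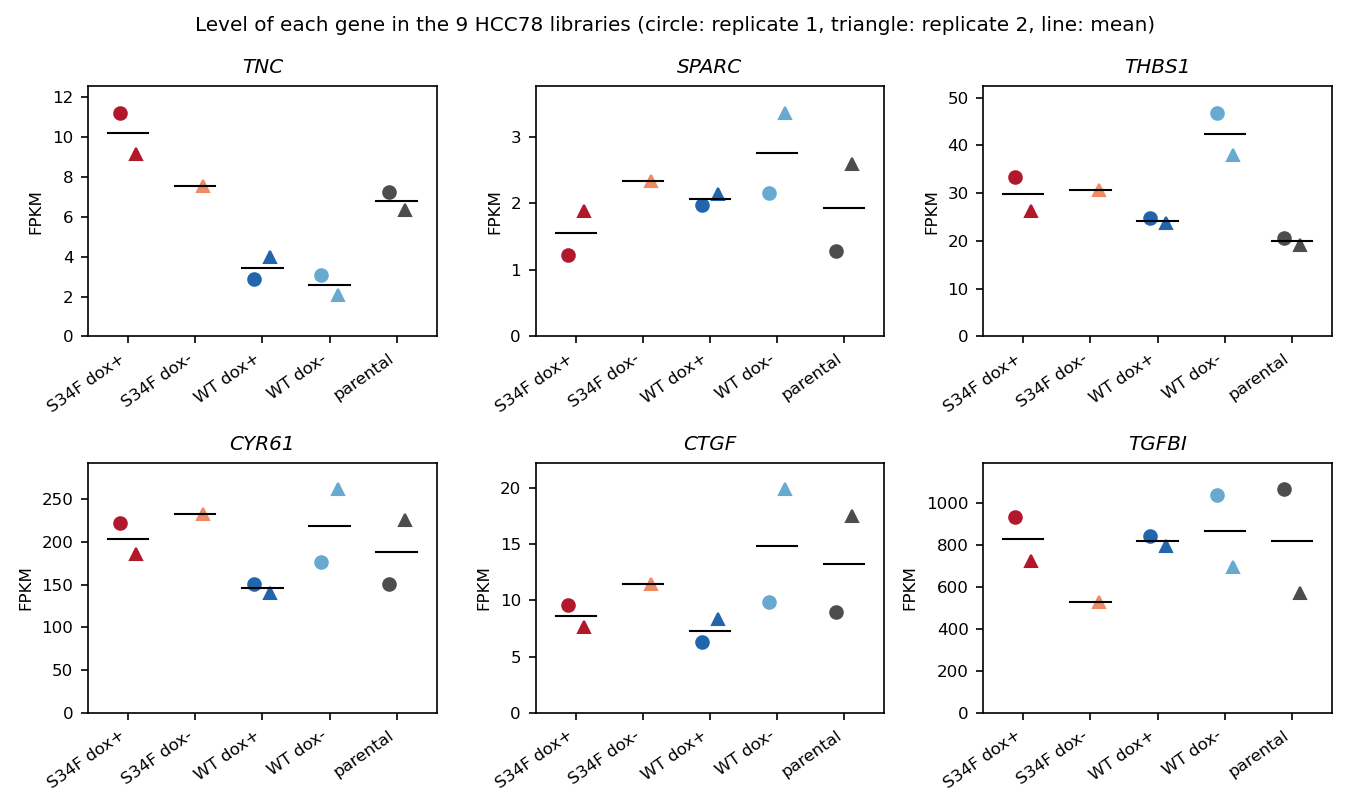
Level of each gene (FPKM, vertical axis from 0, own scale per gene) in each library by group. Circles are replicate 1, triangles replicate 2, lines group means. For TNC the 3 libraries of the S34F line, from 7.55 to 11.2 FPKM, sit above the 4 of the WT line, from 2.08 to 3.96, whereas TGFBI and CTGF spread widely between replicates of WT dox- and of parental cells.

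YAP and TGF-beta act through short DNA motifs, and 3 promoters are shown because they differ in these: CTGF, a YAP readout with repeated TEAD motifs, THBS1 with both motifs, and TNC, the gene with the widest spread, with no TEAD motif. The 250 bases before the annotated start were taken from RefSeq (GRCh38.p14) for 5 of the 6 genes, and the promoter of CYR61 was not analysed here. Each is written in the direction of its gene, and capitals mark the core TEAD motif GGAATG and the SMAD-binding element CAGAC, on either strand.
TNC, minus strand of chr9:115118158-115118407: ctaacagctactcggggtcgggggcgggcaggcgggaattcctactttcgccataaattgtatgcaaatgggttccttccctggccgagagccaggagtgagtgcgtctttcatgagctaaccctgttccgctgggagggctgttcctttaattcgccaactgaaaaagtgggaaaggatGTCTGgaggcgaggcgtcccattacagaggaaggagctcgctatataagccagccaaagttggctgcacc
THBS1, plus strand of chr15:39580829-39581078: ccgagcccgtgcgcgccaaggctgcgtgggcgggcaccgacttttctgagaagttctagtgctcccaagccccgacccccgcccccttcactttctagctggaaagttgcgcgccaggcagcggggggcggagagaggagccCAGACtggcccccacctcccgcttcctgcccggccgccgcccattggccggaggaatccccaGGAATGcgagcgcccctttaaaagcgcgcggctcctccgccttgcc
CTGF, minus strand of chr6:131951373-131951622: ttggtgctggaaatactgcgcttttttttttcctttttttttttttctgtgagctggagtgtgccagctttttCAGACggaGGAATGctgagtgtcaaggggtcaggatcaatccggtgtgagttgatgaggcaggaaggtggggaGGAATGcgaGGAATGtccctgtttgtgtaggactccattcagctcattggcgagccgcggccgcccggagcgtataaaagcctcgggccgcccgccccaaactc

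The CTGF promoter held GGAATG 3 times, with the first letter 169, 104 and 95 bases before the start, and CAGAC once, 177 bases before it. It also had a TATAAA, the core of a TATA box, 32 bases before the start. Only 0.0952% of 27305 promoters of this length held GGAATG at least 3 times, and 11.9% held it at least once. THBS1 had both motifs once, GGAATG 46 and CAGAC 108 bases before the start. TNC had no GGAATG in this window, and its only match was the reverse complement of CAGAC, which capitals show as GTCTG, a motif found in 37.8% of promoters. SPARC had GGAATG once, on the other strand, and TGFBI had neither. These are matches of letters and no measure of binding.

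**Figure D2:**
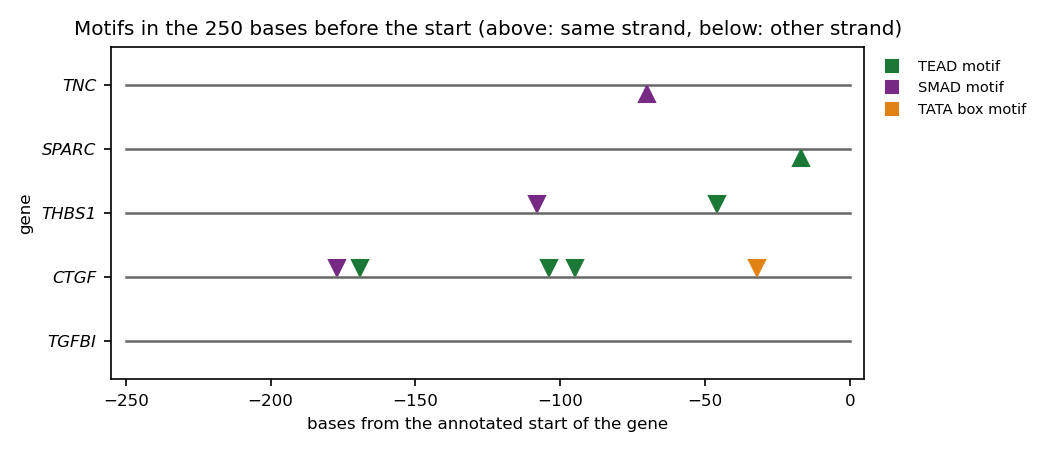
Positions of the TEAD motif (GGAATG), the SMAD motif (CAGAC) and the TATA box motif (TATAAA) in the 250 bases before the annotated start of 5 of the genes, without CYR61. The horizontal axis is the distance from the start in bases, and marks above or below a line are on the same or the other strand. CTGF holds 3 TEAD motifs and TGFBI holds none of the 3 motifs.

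The comparison of S34F dox+ with WT dox+ sets the induced mutant against the induced wild-type protein. TNC had the largest difference of the 6 genes. Its FPKM was 11.2 and 9.14 in S34F dox+ and 2.90 and 3.96 in WT dox+, so that the groups did not overlap and the means, 10.2 ± 1.46 (SD, n = 2) and 3.43 ± 0.750 (SD, n = 2), lay 2.97-fold apart. The log2 fold change of TNC was 1.34 (standard error, SE, 0.22, 95% confidence interval 0.82 to 1.86), with an adjusted p of 0.282 in limma. By p, TNC ranked 21 of 15179 genes in this comparison, and 1.80% of genes had a log2 fold change at least as large in either direction.

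CYR61, the YAP readout with the higher level, stood at 222 and 185 FPKM in S34F dox+ and at 151 and 140 in WT dox+. The groups did not overlap, and the log2 fold change was 0.48 (SE 0.24, adjusted p = 0.759 in limma). THBS1 was 33.4 and 26.2 FPKM against 24.8 and 23.7, again without overlap, for a log2 fold change of 0.28 (SE 0.16, adjusted p = 0.776 in limma) that was 0.11 without S34F dox+ replicate 1 and 0.45 without replicate 2. SPARC was on the other side, at 1.22 and 1.88 FPKM against 1.98 and 2.14, and its difference of -0.28 was -0.09 without S34F dox+ replicate 1 and -0.46 without replicate 2. CTGF, the other YAP readout, was 9.59 and 7.61 FPKM against 6.30 and 8.36, and TGFBI was 935 and 721 against 844 and 795. These last 2 genes overlapped between the groups, with log2 fold changes of 0.21 (95% interval -0.67 to 1.08) and 0.00 (95% interval -0.70 to 0.71), and that of TGFBI was negative under median-ratio scaling and with TPM.

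Of the 6 genes, 0 were called higher or lower in S34F dox+ at an adjusted p under 0.05 in limma, and 1, TNC, had an unadjusted p under 0.05. Over all 15179 genes, 0.0198% were called higher and 0.0329% lower, and 6.78% had an unadjusted p under 0.05. In 3 of the 6, TNC, THBS1 and CYR61, both S34F dox+ replicates were above both WT dox+ replicates, as in 20.5% of all genes, and in 1, SPARC, both were below, as in 15.3%. The median log2 fold change of the 6 was 0.24, against 0.03 for all genes tested.

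**Figure D3:**
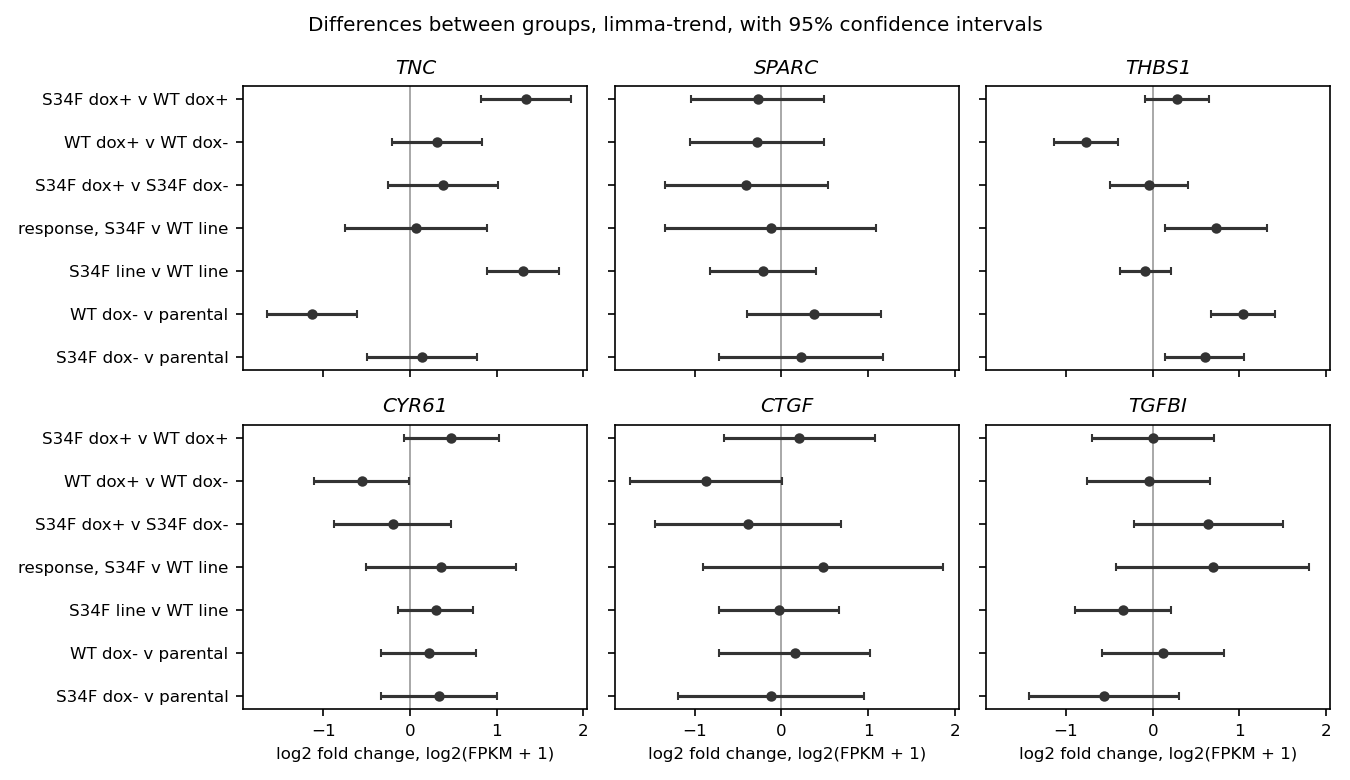
Log2 fold change of each gene on the log2(FPKM + 1) scale (horizontal axis) in the 7 comparisons (vertical axis), with 95% confidence intervals from limma, unadjusted for multiple testing. The TNC intervals for S34F dox+ against WT dox+, for the S34F line against the WT line and for WT dox- against parental cells exclude 0, as do the THBS1 intervals for WT dox+ against WT dox-, for the difference of responses and for both uninduced lines against parental cells, and narrowly the CYR61 interval for WT dox+ against WT dox-. None of the 42 differences had an adjusted p under 0.05.

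TNC differed between the transduced lines without induction as well. The single S34F dox- library had 7.55 FPKM of TNC, above both WT dox- libraries with 3.09 and 2.08 and 2.92-fold above their mean. At that point the U2AF1 level was 115 FPKM in S34F dox- and 112 and 110 in WT dox-, and the S34F share of U2AF1 mRNA was 28% and 33%. Within lines the means with and without doxycycline lay closer. They went from 2.58 ± 0.714 (SD, n = 2) to 3.43 FPKM in the WT line, and from 7.55 to 10.2 in the S34F line. Their log2 fold changes were 0.31 (95% interval -0.21 to 0.83) and 0.38 (95% interval -0.26 to 1.02). The difference between these 2 responses was 0.07 (95% interval -0.75 to 0.89, adjusted p = 1 in limma), and it turned negative under median-ratio scaling, with TPM and without S34F dox+ replicate 1, WT dox+ replicate 1 or WT dox- replicate 1.

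Over both doxycycline states, the S34F line was 1.30 higher in TNC than the WT line on the log2 scale (SE 0.18, 95% interval 0.89 to 1.71, adjusted p = 0.0776 in limma). All 3 libraries of the S34F line were above all 4 of the WT line, as in 2.81% of all genes. An exact two-sided permutation test of the line labels gave p = 0.05714 for TNC, which is the smallest value that 3 against 4 libraries allow, and between 0.3429 and 0.9143 for the other 5 genes. The labels were permuted without regard to doxycycline state. For TNC this p follows from the lack of overlap and adds nothing to it. With protein-coding genes only, the adjusted p of TNC was 0.0339, and over all alternatives it ranged from 0.0339 to 0.325. In the main test 0 of the 6 genes were called and 1 had an unadjusted p under 0.05, while 0.0593% of all genes were called in each direction and 5.96% had an unadjusted p under 0.05. The median over the 6 genes was -0.06, against 0.01 for all genes.

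The parental cells, which carry no construct, lay closer to the S34F line in TNC than to the WT line. Their FPKM was 7.22 and 6.34, a mean of 6.78 ± 0.622 (SD, n = 2), so the order of groups from high to low was S34F dox+, S34F dox-, parental, WT dox+ and WT dox-. S34F dox- and parental cells differed by 0.14 (95% interval -0.50 to 0.78), and the intervals between S34F dox+ and S34F dox- and between WT dox+ and WT dox- also included 0, so these neighbours in the order were not separated beyond their spread. All 4 WT line libraries were below both parental libraries, as in 9.91% of genes, and all 3 S34F line libraries were above them, as in 12.7%. WT dox- was 1.13 below parental cells on the log2 scale (SE 0.22, adjusted p = 0.142 in limma). The lung adenocarcinoma markers were below parental cells in both lines, whereas TNC was below them only in the WT line. All 5 tested markers were lower, with medians of -1.10 in WT dox- and -1.24 in S34F dox-. These markers include SLC34A2 and ROS1, the 2 genes of the fusion. Whether the making of the lines and the TNC level were related was not tested.

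THBS1 had another order, with WT dox- highest, at 46.8 and 37.9 FPKM, and parental cells lowest, at 20.5 and 19.2. S34F dox- had 30.6 FPKM, close to the S34F dox+ replicates, and the WT dox+ replicates had 24.8 and 23.7. The log2 fold change of THBS1 was 1.05 in WT dox- against parental cells (SE 0.16, adjusted p = 0.0983 in limma). With protein-coding genes only this adjusted p was 0.0319, and it ranged from 0.0319 to 0.472 over the alternatives. S34F dox- against parental cells gave 0.60 (SE 0.19, adjusted p = 0.434). All libraries of both transduced lines were above both parental libraries in THBS1, as in 10.4% of genes for the WT line and 12.7% for the S34F line.

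With doxycycline in the WT line, 4 of the 6 genes stood below both WT dox- replicates, namely THBS1, CYR61, CTGF and SPARC, as in 20.8% of all genes. None stood above both, which 28.9% of genes did. THBS1 gave a log2 fold change of -0.77 (SE 0.16, adjusted p = 0.146 in limma). CYR61 was 151 and 140 FPKM in WT dox+ against 176 and 261 in WT dox-, and differed by -0.56 (SE 0.24, adjusted p = 0.343 in limma), or by -0.27 without WT dox- replicate 2. CTGF was 6.30 and 8.36 against 9.89 and 19.9, with -0.87 (SE 0.38, adjusted p = 0.351 in limma), most of it from WT dox- replicate 2, without which it was -0.40. SPARC was 1.98 and 2.14 against 2.16 and 3.36, with -0.28 (SE 0.33), or -0.05 without WT dox- replicate 2. At an adjusted p under 0.05 in limma 0 of the 6 were called and 2 had an unadjusted p under 0.05, while 0.00659% of all genes were called in each direction and 14.4% had an unadjusted p under 0.05. The median of the 6 was -0.42, against 0.05 for all genes.

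In the S34F line the same step had the S34F dox- library alone as its base. The log2 fold changes there ranged from -0.40 in SPARC to 0.64 in TGFBI, and THBS1 gave -0.05 (95% interval -0.50 to 0.41). TGFBI was 526 FPKM in S34F dox-, the lowest of all 9 libraries, against 935 and 721 in S34F dox+. None of the 6 was called in limma or had an unadjusted p under 0.05, while 0.198% of all genes were called higher and 0.0856% lower and 15.8% had an unadjusted p under 0.05. The difference between the doxycycline responses of the lines was tested directly, and was 0.73 in THBS1 (SE 0.25, adjusted p = 1 in limma), 0.69 in TGFBI and 0.48 in CTGF. Which of the 3 was largest changed with the setting, since the replicate block gave CTGF 0.72 and THBS1 0.63, leaving out WT dox- replicate 1 gave CTGF 0.95, and leaving out WT dox- replicate 2 gave TGFBI 0.98. In that test 0 of the 6 genes were called and 1 had an unadjusted p under 0.05, beside 0.00659% of all genes called higher, 0.0198% called lower and 3.42% at an unadjusted p under 0.05. Against parental cells, 0 of the 6 were called in either uninduced line, with 2 at an unadjusted p under 0.05 in WT dox- and 1 in S34F dox-. The shares of all genes called there were 0.0395% higher and 0.0593% lower for WT dox-, and 0.0527% higher and 0.0593% lower for S34F dox-. The shares at an unadjusted p under 0.05 were 12.3% and 8.93%.

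The other 4 genes gave orders whose neighbours mostly overlapped. CYR61 had 233 FPKM in S34F dox- and group means of 219 ± 60.4 (SD, n = 2) in WT dox-, 204 ± 25.8 in S34F dox+, 188 ± 53.0 in parental cells and 146 ± 7.70 in WT dox+, the lowest. CTGF went from 14.9 ± 7.06 in WT dox- over 13.2 ± 6.05 in parental cells, 11.5 in S34F dox- and 8.60 ± 1.40 in S34F dox+ to 7.33 ± 1.46 in WT dox+. By group mean, both YAP readouts were lowest in WT dox+. SPARC lay between 1.55 ± 0.467 in S34F dox+ and 2.76 ± 0.849 in WT dox-, with parental cells at 1.28 and 2.59. TGFBI had means from 817 to 865 FPKM in the 4 groups with replicates, and the S34F dox- library was lower than any other, at 526 against 570 FPKM in parental replicate 2.

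Replicates of 1 group lay far apart in CTGF, CYR61, SPARC and TGFBI. CTGF was 2.01-fold higher in replicate 2 than in replicate 1 of WT dox-, and 1.96-fold higher in replicate 2 of the parental cells, at 17.5 against 8.95 FPKM. CYR61 went the same way, 1.49-fold in WT dox- and 1.5-fold in parental cells, where replicate 2 had 226 FPKM and replicate 1 had 151. TGFBI was the reverse, 1.49-fold and 1.87-fold higher in replicate 1 of these groups, at 1064 against 570 FPKM in the parental pair. SPARC was 2.02-fold higher in parental replicate 2. For comparison, the median gap between replicates over all genes was 1.18-fold in WT dox- and 1.17-fold in parental cells, and 19.5% and 19.0% of genes differed by at least 1.5-fold. The gaps were 1.05-fold to 1.27-fold in THBS1. In TNC they were 1.14-fold to 1.49-fold, and the widest, in WT dox-, was as large as that of CYR61 there.

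Across the 9 libraries the log2 levels of CYR61 and CTGF went together most (Pearson r = 0.79), followed by SPARC and CTGF (r = 0.66), whereas SPARC ran opposite to TNC (r = -0.66) and to TGFBI (r = -0.63). TNC and CYR61 had an r of 0.12 and TNC and CTGF of -0.20. These are descriptions over 9 points that share lines and library preparation, and they carry no test.

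The genes whose levels most resembled each of the 6 were sought among the 1360 protein-coding genes that averaged 5 FPKM or more and spanned 1 or more on the log2 scale. For TNC these were GAB1 (r = 0.93), an adaptor of receptor tyrosine kinases, POFUT2 (0.91), an O-fucosyltransferase, PTER (0.88), EPHX3 (0.88), an epoxide hydrolase, and TXNIP (0.87), a thioredoxin-binding protein. GAB1 had 14.5 and 11.4 FPKM in S34F dox+, 4.96 and 5.94 in WT dox+, 6.97 in S34F dox-, 3.36 and 3.57 in WT dox-, and 6.83 and 8.46 in parental cells, the group order of TNC except that the parental mean was above S34F dox-. For THBS1 they were MPHOSPH6 (0.95), CCL2 (0.92), a monocyte chemokine, and FAM65A (0.89). CCL2 was highest in WT dox-, at 9.31 and 7.11 FPKM, and was 3.84 and 2.31 in parental cells.

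For CYR61 the list was led by JUN (0.91), a subunit of the AP-1 transcription factor, and for CTGF by JUNB (0.89), another AP-1 subunit, with MYC (0.88) and PHLDA2 (0.86). JUN was 36.7 FPKM in parental replicate 2 and 12.8 in replicate 1, and 29.9 and 15.7 in WT dox- replicates 2 and 1, which is the replicate pattern of CTGF. F8A3 (0.90), which has near-identical copies, and ARHGAP19-SLIT1 (0.89), a readthrough locus, also came up for CYR61, and their levels are uncertain because reads can be split between copies or overlapping genes. SPARC was followed by HIST1H2AK (0.92), a histone gene with close relatives and so uncertain too, ID1 (0.90), an inhibitor of helix-loop-helix factors, and MTSS1L (0.89). TGFBI was followed by the circadian clock genes PER3 (0.86) and PER2 (0.85) and by the splicing kinase CLK1 (0.81). PER3 was 12.7 and 5.39 FPKM in the parental replicates and 8.41 and 4.13 in the WT dox- replicates, replicate 1 first.

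**Figure D4:**
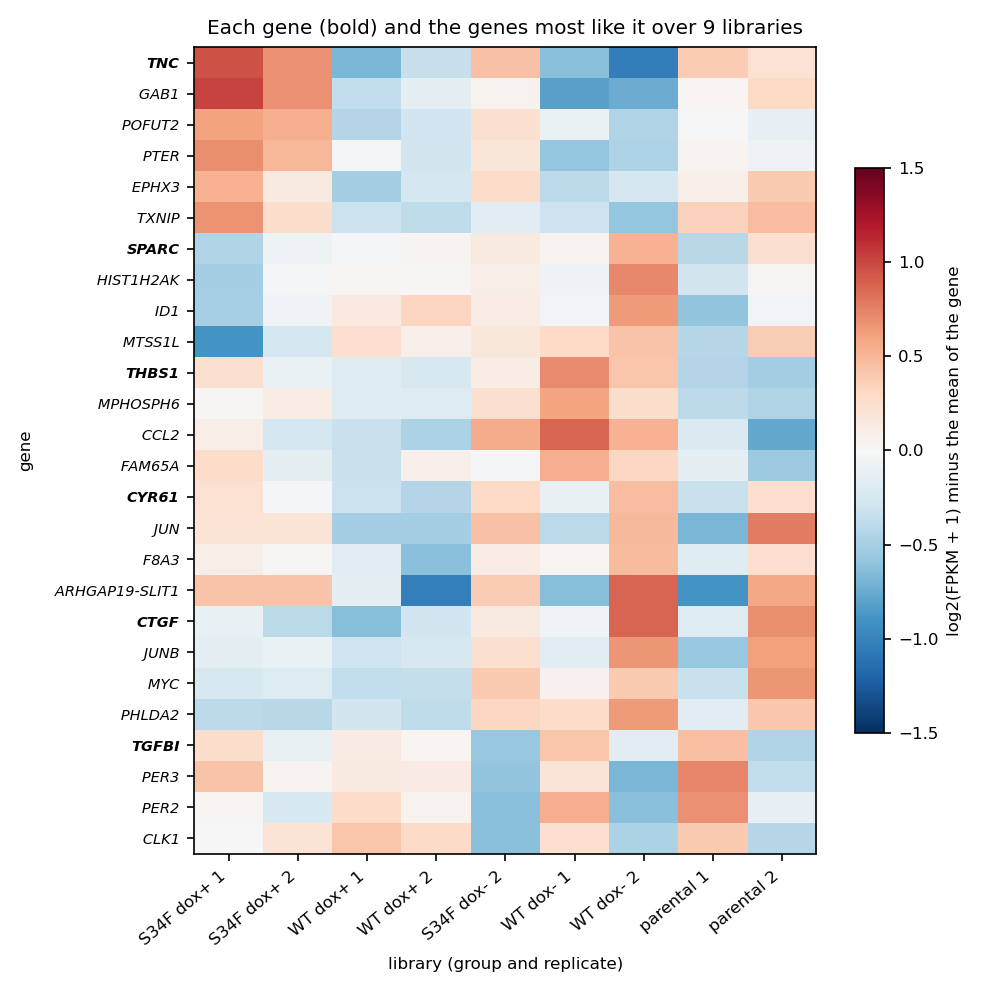
Log2(FPKM + 1) minus the mean of each gene over the 9 libraries (color) for the 6 genes, in bold, and the genes with the highest Pearson r to each (rows), by library (columns). TNC and its 5 neighbours are highest in S34F dox+ replicate 1, whereas CTGF with JUNB and TGFBI with PER3 and PER2 split the replicates of WT dox- and parental cells in opposite senses.

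The other genes of the pathways were described from fixed lists, without a set test. Of the TGF-beta ligands, latency proteins and receptors, 9 were tested in S34F dox+ against WT dox+. TGFB2, a TGF-beta ligand, was 11.9 and 10.8 FPKM against 13.5 and 19.0 (adjusted p = 0.758 in limma). LTBP1, a latent TGF-beta binding protein on this list, had a mean of 1.07 FPKM. It reached the minimum for testing only with its WT dox+ libraries, so no count of directions or median is given for this list. The LTBP1 relatives LTBP4 and LTBP3 had log2 fold changes of 0.52 and -0.50. Of 10 SMAD transducers and feedback genes, 6 were higher and 4 lower (median 0.04), with PMEPA1, SMAD7 and TGIF1 at 0.32, 0.27 and 0.25. Of 5 other TGF-beta induced genes, 4 were higher and 1 lower (median 0.34). TAGLN, an actin-binding protein of smooth muscle, was 50.0 and 35.7 FPKM in S34F dox+ against 18.2 and 14.9 in WT dox+, with the log2 difference at 1.31 (SE 0.19, adjusted p = 0.200 in limma). Without induction, TAGLN was 19.2 FPKM in S34F dox- and 16.5 and 17.7 in WT dox-. None of the genes on these 3 lists was called in limma, and 1, TAGLN, had an unadjusted p under 0.05.

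Of 16 Hippo kinases, YAP, TAZ and TEAD genes, 9 were higher and 7 lower in S34F dox+, with a median of 0.02. TEAD3, VGLL4 and WWTR1, which encodes TAZ, differed most, at -0.43, 0.20 and -0.19, and 0 genes of the list had an unadjusted p under 0.05. The 19 other YAP and TAZ induced genes were not all on the side of CYR61: 7 were higher and 12 lower, with a median of -0.04, and 0 were called in limma. At an unadjusted p under 0.05, 0 were higher and 3 were lower, where 4.01% and 2.77% of all genes were. ANKRD1, a muscle ankyrin protein and common YAP target, was 17.5 and 17.1 FPKM in S34F dox+ against 31.7 and 37.6 in WT dox+ (log2 fold change -0.96, SE 0.34, adjusted p = 0.654). NT5E, which encodes the ectonucleotidase CD73, was 60.6 and 63.5 against 112 and 112 (log2 fold change -0.85, SE 0.13, adjusted p = 0.234). NUAK2 was higher, at 0.39. In WT dox- against parental cells, 14 of these 19 genes were higher and 5 lower, with a median of 0.22, 0 called in limma, and an unadjusted p under 0.05 for 6 on the higher side and 0 on the lower, against 5.79% and 6.54% of all genes.

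NT5E was also lower in S34F dox+ than in S34F dox-, which had 173 FPKM, by an adjusted p of 0.0260 in limma (log2 fold change -1.46). FOSL1, an AP-1 subunit on the list of immediate-early genes, was 134 and 152 FPKM in S34F dox+ and 367 in S34F dox-, with a log2 fold change of -1.36 (adjusted p = 0.0385 in limma). The WT line gave FOSL1 127 and 157 FPKM with doxycycline and 311 and 283 without, a log2 fold change of -1.06 (adjusted p = 0.0767 in limma), and the responses of the lines differed by -0.29 (SE 0.23, adjusted p = 1 in limma). For NT5E the WT line gave -0.38, and the responses differed by -1.08 (SE 0.21, adjusted p = 1 in limma). NT5E and FOSL1 were the only listed genes called in any of the 7 comparisons. Both calls rest on 1 S34F dox- library, and each was lost when any 1 of the other 8 libraries was left out, at adjusted p between 0.0637 and 0.163 for NT5E and between 0.0989 and 0.180 for FOSL1, while the log2 fold changes stayed between -1.497 and -1.432 for NT5E and between -1.446 and -1.269 for FOSL1. In that comparison 15 of the 16 tested immediate-early genes were lower with doxycycline, with a median of -0.36 against 0.09 for all genes. These directions all share the 1 S34F dox- library as their base and are not independent. In WT dox+ against WT dox-, 11 of the list were lower and 5 higher, with a median of -0.18 against 0.05 for all genes. In S34F dox+ against WT dox+ the same list had 10 higher and 6 lower (median 0.04), led by JUN, ATF3 and DUSP1 at 0.71, 0.55 and 0.54, and 0 were called in limma or had an unadjusted p under 0.05.

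Few relatives of the 6 genes were expressed: 6 of 19 tenascins, thrombospondins, CCN proteins and SPARC relatives reached a mean of 1 FPKM. None of these was called in limma or had an unadjusted p under 0.05 in S34F dox+ against WT dox+. TNXB and SPOCK2 reached that mean only with their S34F dox+ libraries, so no count of directions is given. THBS3 was 10.6 and 11.1 FPKM against 8.63 and 8.45, TNXB was 0.95 and 4.82 against 0.17 and 1.01, and SPOCK2 was 0.20 and 3.45 against 1.03 and 0.76. Among 17 tested cell surface receptors, 0 were called in limma in this comparison. At an unadjusted p under 0.05, 3 receptors were lower, where 2.77% of all genes were lower at that threshold. ITGB3, the beta 3 integrin, was 4.09 and 1.89 FPKM in S34F dox+ and between 0.31 and 0.89 in the other 7 libraries. It was the 1 receptor that was higher at an unadjusted p under 0.05. Since it reached the minimum mean of 1 FPKM only through S34F dox+, its levels are given as a description. For the same reason, no count of directions or median is given for the receptors. ITGA6, the alpha 6 integrin that binds laminin, was 5.88 and 9.14 against 12.2 and 15.1 (-0.80, adjusted p = 0.545), and ITGB6, part of an integrin that activates latent TGF-beta, was 12.0 and 8.10 against 13.9 and 16.1 (-0.56).

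Splicing was deposited as PSI, the share of transcripts that use 1 of the alternatives of an event, estimated by MISO, with 1 value for S34F and 1 for WT and no replicates, so no test was possible. The event tables do not name the replicates behind a value, and S34F and WT were taken to be the dox+ cells. Skipped exon PSI is the inclusion of the exon. For the other event types the tables do not say which alternative the value stands for, and those values are given as deposited. The 6 genes had 47 events, 46 of them with at least 10 reads. PSI differed by at least 0.1 in 15 of the 46, 5 higher and 10 lower in S34F. Of all 87763 events, 33% were past that difference, 17% higher and 16% lower. By gene, these were 9 of 14 events in TNC, 5 of 8 in SPARC, 1 of 20 in TGFBI, 0 of 2 in THBS1 and 0 of 1 each in CYR61 and CTGF. Events of a gene share most of their reads and are not independent: the 14 TNC events had 11 distinct pairs of read counts.

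TNC is known for alternatively spliced exons that encode fibronectin type III repeats, and most of its events lay between 117804620 and 117835882 on chromosome 9. The exception was a skipped exon far upstream, between 117853433 and 117880261, with an inclusion of 0.05 in S34F and 0.03 in WT. Read from the junctions, 4 of the exons could be measured whole, and their 273, 276, 273 and 273 bases are all multiples of 3, that is 91 or 92 codons. Coordinates are as in the event tables, on the minus strand of chromosome 9, in the GRCh37 or hg19 build that the labels name for these libraries. The exon at chr9:117810539-117810811 had the largest difference. When spliced from the exon ending at 117815019, its inclusion was 0.29 in S34F (547 reads) and 0.72 in WT (324 reads), a difference of -0.43. When spliced from the exon ending at 117819432, its inclusion was 0.20 (751 reads) and 0.46 (463 reads). Both values put this exon at lower inclusion in S34F. The first value concerns only transcripts that hold the exon at chr9:117815019-117815294. That exon was rarely included, at 0.04 and 0.08 in S34F and at 0.09 and 0.14 in WT. How many of the reads behind the first value bear on this choice is not known.

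Neighbouring TNC exons did not all go that way. From the exon ending at 117835882, the exon starting at 117819704 was included at 0.74 in S34F and 0.56 in WT rather than the jump to 117808961, and the exon starting at 117808961 was included at 0.81 and 0.61 rather than the jump to 117804620. The exon starting at 117827198 was included at 0.47 in S34F and 0.64 in WT. The exon at chr9:117815019-117815294 was rarely included, at 0.04 and 0.08 in S34F and at 0.09 and 0.14 in WT. The exon at chr9:117825196-117825468 had 0.62 and 0.70. In all, 5 of 10 TNC skipped exon events passed a difference of 0.1, 2 higher and 3 lower in S34F. Among 3489 skipped exon events with 871 to 1214 reads, as many as those of TNC, 25.5% passed it, and 0.831% differed by 0.43 or more. These were matched on total reads, not on reads that tell the alternatives apart.

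The 4 NAGNAG events of TNC, in which 3′ splice sites 3 bases apart compete, were 1 pair of acceptors, at 117808961 and 117808958, reached from 4 upstream exons. The deposited PSI was lower in S34F in each: 0.07 against 0.31 and 0.17 against 0.41 from the exons ending at 117819432 and 117835882, and 0.25 against 0.38 and 0.10 against 0.23 from those ending at 117815019 and 117810539. Of all 15950 NAGNAG events, 39.3% passed a difference of 0.1 in either direction. A choice between these acceptors adds or leaves out 1 codon.

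**Figure D5:**
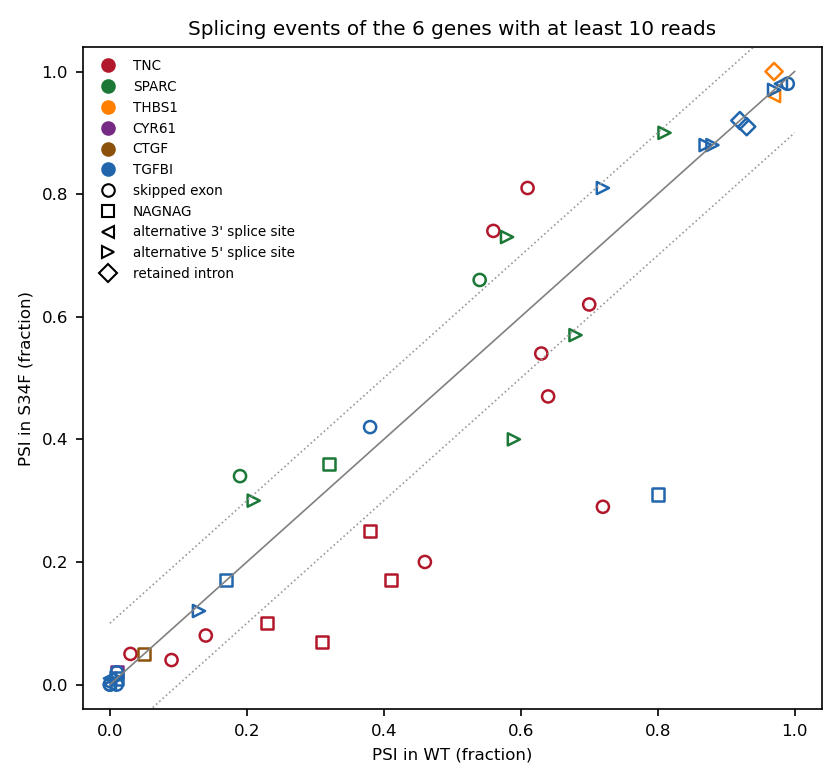
PSI in S34F (vertical axis) against WT (horizontal axis), both as fractions, for the 46 events with at least 10 reads, colored by gene and shaped by event type. An event with 3 isoforms is drawn for the isoform that differed most. The solid line is equality and the dotted lines a difference of 0.1. TNC events and a TGFBI NAGNAG event (0.31 and 0.80) lie farthest below the line, and the other TGFBI events lie within the dotted lines.

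TGFBI had up to 12471 reads per event in S34F and 17705 in WT, and its PSI differed by less than 0.1 in all but 1 of its 20 events. The exception was a NAGNAG event at 135390364 and 135390367 on the plus strand of chromosome 5, with a PSI of 0.31 in S34F (718 reads) and 0.80 in WT (1043 reads). The other 2 TGFBI NAGNAG events had 0.01 and 0.01, and 0.17 and 0.17. SPARC events had at most 42 reads in S34F and 96 in WT, and their 5 differences ran from -0.19 to 0.15, with 0 events left at 100 reads in each condition. THBS1 had 0.96 and 0.97 at an alternative 3′ splice site and 1.00 and 0.97 at a retained intron. CYR61 (6115 and 6582 reads) had 0.02 and 0.01 at its NAGNAG event, and CTGF (317 and 390 reads) had 0.05 and 0.05.

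The reads of the events gave a second view of the levels, taken to be from the same dox+ libraries and so with no independent weight. The FPKM ratios are those of S34F dox+ over WT dox+. Relative to the median ratio of 0.684 over 56570 events, the S34F over WT ratio of reads was 2.37 in TNC, where the ratio of mean FPKM was 2.97. It was 1.36 in CYR61 (1.40 by FPKM), 1.34 in THBS1 (1.23), 1.19 in CTGF (1.17), 1.03 in TGFBI (1.01) and 0.64 in SPARC (0.752).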

How the data were processed

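Total RNA from the HCC78 lines was made into stranded libraries and read in pairs. The authors trimmed the reads, aligned them with STAR 2.3.0 and computed gene FPKM and TPM with RSEM 1.2.29, per the labels and the study's methods, on GRCh37 or hg19. The deposited table holds these FPKM and TPM values and no counts, which barred the count test of the study. P-values measure only the spread between libraries whose replicate type is not stated. The authors estimated PSI with MISO, and the deposited PSI values are fractions between 0 and 1. Each event has deposited read counts per condition. The deposited columns of PSI differences and Bayes factors hold the authors' own comparison and were not used.

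Genes averaging 1 FPKM or more over the 9 libraries, 15179 in all, were fitted as log2(FPKM + 1) with limma-trend (limma 3.58.1, R 4.3.3), the 5 groups together. Tests were two-sided, with Benjamini-Hochberg adjustment over all genes in each of 7 comparisons. A gene was called at an adjusted p under 0.05. The fit was tried on simulated data with independent noise and large changes in genes of higher level. That trial does not cover low genes, small differences or effects shared by libraries. Fold changes on this scale understate the change of low genes. S34F dox- has 1 library, assumed to vary like the others. Permutation tests used scipy 1.17.1.

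The members and lists were chosen with earlier results of these data known. The genes named are the 6, the 5 (TNC) or 3 genes with the highest r to each, and from each list those called in any comparison and up to 3 with the largest difference in S34F dox+ against WT dox+. Up to 3 differing events per gene were to be named in full, and more are given for TNC. An event differed at a PSI difference of at least 0.1 with at least 10 reads. Alternatives covered pseudocount, minimum FPKM, scaling, TPM, a replicate block, protein-coding genes only, left-out replicates and event thresholds. Binding data and splice site sequences were not used here.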

Additional observations from a re-analysis of the deposited data

How the results depend on the processing

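Of the 42 differences of the 6 genes over 7 comparisons, recomputed 689 times in all, 660 values kept their direction and their side of an adjusted p of 0.05 in limma. The TNC difference between S34F dox+ and WT dox+ stayed between 1.17 and 1.55 with an adjusted p between 0.125 and 0.948. With protein-coding genes only, fewer genes were tested and 1 of the 6 genes was called in the S34F line against the WT line (TNC) and 1 in WT dox- against parental cells (THBS1). Under no other alternative was any of the 6 called.

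The number of genes called in S34F dox+ against WT dox+, 8 in all, was 4 with a pseudocount of 0.1, 3 with no minimum FPKM, 5 with the replicate block and 0 with only the 4 dox+ libraries, and ranged from 1 to 29 when 1 replicate was left out, with the extremes without WT dox+ replicate 2 and without S34F dox+ replicate 1. The count of splicing events past the difference was 6 at a minimum of 0.2.

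Over the 15179 genes tested, the differences between replicates 1 and 2 correlated between groups at -0.08 to 0.04. A value over all genes cannot exclude pairing or an effect shared by some genes. CTGF, CYR61 and SPARC were higher in replicate 2 of both WT dox- and parental cells, and TGFBI, TNC and THBS1 in replicate 1 of both. Whether replicate numbers pair the samples is not known. The replicate block gave TNC 1.34 in S34F dox+ against WT dox+ and 1.33 in the line comparison, called none of the 6, and reversed SPARC in the difference of responses (0.074). Under it the NT5E and FOSL1 differences between S34F dox+ and S34F dox- lost their call, at -1.39 and -1.28.

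Differences close to 0 changed sign. TGFBI in S34F dox+ against WT dox+ was -0.064 under median-ratio scaling and -0.115 with TPM, and in WT dox+ against WT dox- it was 0.122 under quantile normalization. The difference in TNC response was -0.087 under median-ratio scaling and -0.056 with TPM, and CTGF in S34F dox- against parental cells was 0.006 with TPM. Leaving out 1 replicate gave ranges that spanned 0 for TGFBI in S34F dox+ against WT dox+ (-0.184 to 0.190) and in WT dox+ against WT dox- (-0.336 to 0.238), and for THBS1 in S34F dox+ against S34F dox- (-0.214 to 0.124). They did so for the difference in response of TNC (-0.135 to 0.275) and SPARC (-0.355 to 0.110), and for CTGF between the lines (-0.267 to 0.202). Against parental cells they did so in WT dox- for CYR61 (-0.073 to 0.505), CTGF (-0.318 to 0.622) and TGFBI (-0.327 to 0.573), and in S34F dox- for SPARC (-0.104 to 0.551) and CTGF (-0.569 to 0.327).

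The scaling moved the median of all genes by over 0.1 in places. In S34F dox+ against S34F dox- it was 0.087, and -0.149, -0.042 and -0.030 with median-ratio scaling, quantile normalization and TPM. In the difference of responses it was 0.035, and -0.106 with median-ratio scaling and with TPM. With TPM it went from 0.029 to -0.074 in S34F dox+ against WT dox+ and from -0.011 to 0.103 in S34F dox- against parental cells. The unknown depth and the 1 or 2 libraries a group limit all these values. The cause of these changes was not tested.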
